A study of Mus musculus with 4 samples.

Results

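The genes described here build and drive motile cilia. They were chosen by name: genes whose symbol starts with Dnah, Dnai, Dnal, Dnaaf, Cfap, Rsph, Tekt or Drc, together with Foxj1, Rfx2, Rfx3, Tmem212, Stk33 and Ccdc81. On the array 61 genes with 89 probes matched, and 56 of them, with 71 probes, were well above background on at least 1 array by the scanner software's own flag. The whole array held 32300 genes or transcripts, of which 20571 met the same criterion. The study compared lung tumors with non-tumor lung in mice that lack or carry Nrf2 (Nfe2l2), the transcription factor that drives the oxidative stress response. All mice were female ICR mice, aged 6 months per the labels, and all received urethane, a lung carcinogen, at 1 g per kg body weight; tissue was taken 16 weeks later. The 4 groups were Nrf2-/- tumor, Nrf2+/+ tumor, Nrf2-/- non-tumor lung and Nrf2+/+ non-tumor lung. Tumors were between 1.0 and 1.5 mm across and were freed of surrounding tissue under a microscope. Each group was a single pool of RNA from 8 mice on a single array, so the spread between mice was not measured and a difference between 2 arrays carries no test. Lung without urethane was not analysed here, so non-tumor lung is carcinogen-treated lung.

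Motile cilia are the beating processes of multiciliated cells, which move mucus along the airway surface. Their core, the axoneme, is a ring of doublet microtubules around a central pair, and outer and inner dynein arms on the doublets slide them past each other. Radial spokes and the dynein regulatory complex coordinate the arms, tektins and many Cfap proteins line or tie the doublets, and assembly factors fold the dyneins in the cytoplasm before transport into the cilium. Foxj1 and the Rfx factors switch on most of these genes when an airway cell becomes multiciliated. In bulk tissue a lower level can mean fewer ciliated cells or less RNA per cell, and these cannot be told apart here.

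Levels are given as scaled signal, the background-subtracted brightness of a probe with each array's 75th percentile set to 1000, so that a ratio of scaled signals is a fold difference. Between 54.2% and 63.5% of the spots on an array were well above background, with the lower shares on the tumor arrays. Nfe2l2 itself had scaled signals of 11.9 and 6.91 on the arrays labelled Nrf2-/- tumor and Nrf2-/- non-tumor, neither well above background, against 13471 and 10413 on the Nrf2+/+ arrays of the same tissues. The dimmest signal well above background lay at 50.3 on the Nrf2-/- tumor array, 41.6 on the Nrf2+/+ tumor array, 27.7 on the Nrf2-/- non-tumor array and 28.7 on the Nrf2+/+ non-tumor array. Where a gene was below background on one array of a pair, its fold is given as a lower bound against that level or the gene's own signal there, whichever was higher. Slide 1 held the Nrf2+/+ non-tumor array alone and slide 2 the 3 others, so the Nrf2-/- tumor difference and the genotype difference in tumors lie within a slide. The other differences cross slides, where slide and group cannot be told apart.

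The genes that mark ciliated cells were clearly measured in non-tumor lung and much lower in tumors of both genotypes. Foxj1, the master regulator of motile ciliogenesis, had a scaled signal of 60.0 in Nrf2-/- tumors against 559.7 in Nrf2-/- non-tumor lung, with 143 in Nrf2+/+ tumors against 674 in Nrf2+/+ non-tumor lung. These are 9.33-fold lower levels in Nrf2-/- tumors and 4.72-fold lower levels in Nrf2+/+ tumors, with log2 differences of -3.22 and -2.24 and software errors of 0.34 and 0.23. Dnah5, the outer arm heavy chain whose human gene is often mutated in primary ciliary dyskinesia, had 40.0 in Nrf2-/- tumors against 492 in Nrf2-/- non-tumor lung, with 117 in Nrf2+/+ tumors against 591 in Nrf2+/+ non-tumor lung. The Nrf2-/- tumor value was below background, so Dnah5 was at least 9.79-fold lower there, and it was 5.07-fold lower in Nrf2+/+ tumors. A dimmer second Dnah5 probe gave log2 differences of -0.91 in the Nrf2-/- pair and -1.45 in the Nrf2+/+ pair and was below background in both tumors. Tmem212, a membrane protein gene of ciliated cells with no settled function, had 479 in Nrf2-/- tumors against 4569 in Nrf2-/- non-tumor lung, with 1144 in Nrf2+/+ tumors against 5781 in Nrf2+/+ non-tumor lung. It was above background on all 4 arrays and 9.55-fold lower in Nrf2-/- tumors and 5.05-fold lower in Nrf2+/+ tumors. For all 3 genes both tumor arrays lay below both non-tumor arrays, and the Nrf2-/- tumor held the lowest value.

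**Figure D1:**
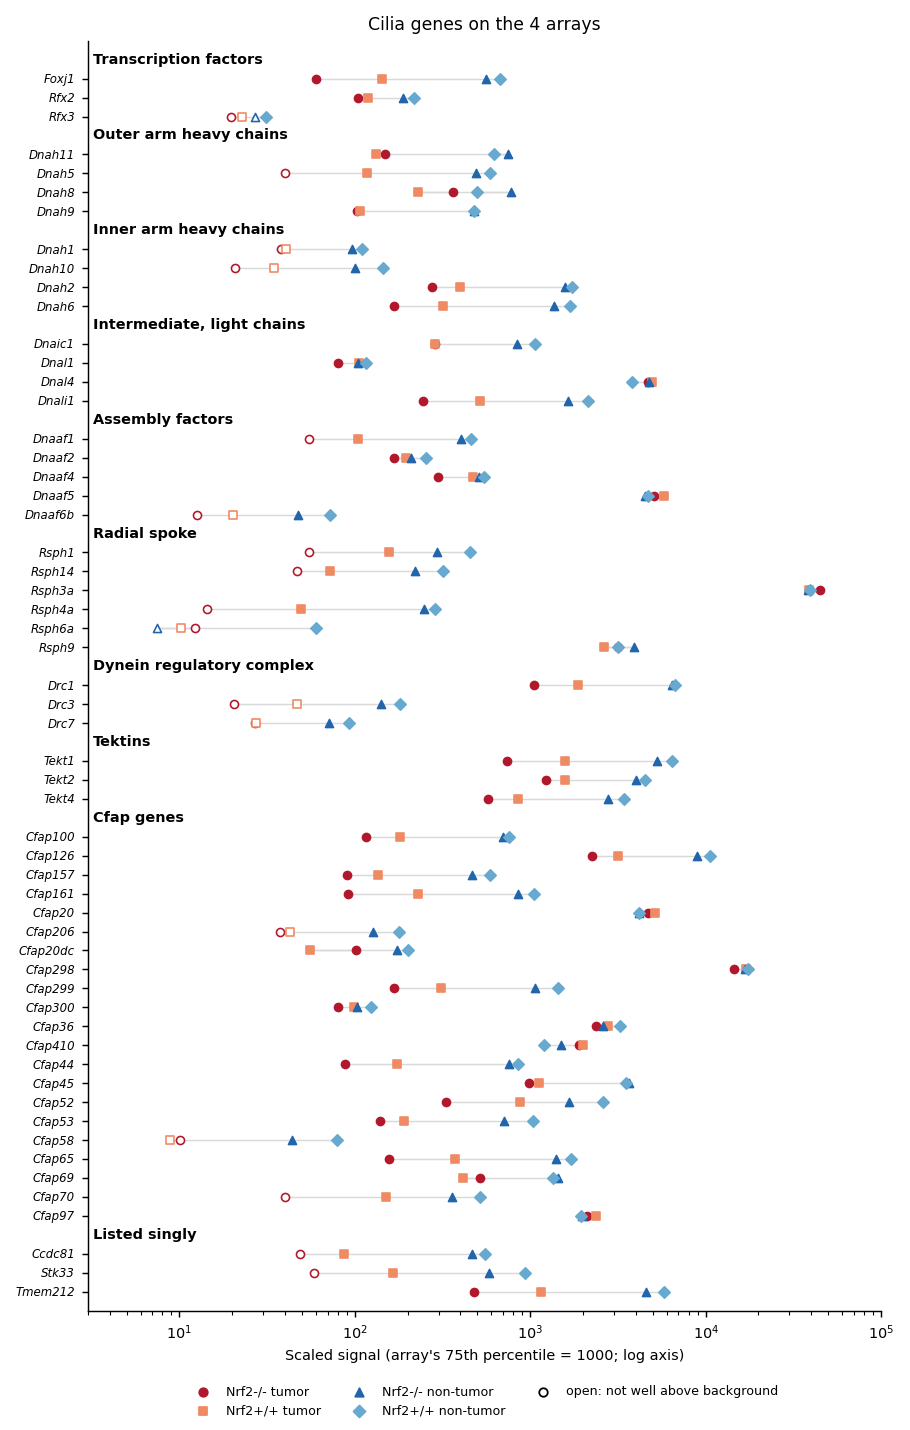
Scaled signal (log axis, 75th percentile of each array set to 1000) of the 56 cilia genes on the 4 arrays, grouped by role, with 1 array per group and open symbols for values not well above background. Most rows show both tumor arrays left of both non-tumor arrays, while rows such as Cfap20, Cfap298, Dnal4 and Rsph3a show the 4 arrays close together.

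Most of the cilia genes shared this difference, and no member went the other way by 2-fold. In the Nrf2-/- pair, 39 of the 54 members measured were at least 2-fold lower in tumors, against 9.13% of all genes measured there, and 0 were at least 2-fold higher, against 5.44% of all genes. In the Nrf2+/+ pair, 41 of 56 were at least 2-fold lower, against 15.4% of all genes, and 0 were at least 2-fold higher, against 8.08%. The median log2 difference of the members was -2.22 in the Nrf2-/- pair, where the median of all genes was -0.03, and -1.88 in the Nrf2+/+ pair, where the median of all genes was -0.03 as well. With dim values set to their bounds, 34 members in the Nrf2-/- pair and 38 in the Nrf2+/+ pair were still at least 2-fold lower, against 5.82% and 11.2% of all genes at the same bounds. With a normexp background correction, which adds an offset to every signal, the median differences shrank to -1.30 in the Nrf2-/- pair and -1.15 in the Nrf2+/+ pair. The number of members well above background was 39 in Nrf2-/- tumors and 54 in Nrf2-/- non-tumor lung, against 47 in Nrf2+/+ tumors and 56 in Nrf2+/+ non-tumor lung. The background criterion was met by every member on the Nrf2+/+ non-tumor array, so the members were in part selected through a non-tumor array.

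The 2-fold mark was used to divide the members into a lower block and an even block, where even means only within 2-fold. At least 2-fold lower in tumors of both genotypes were 39 members, against 6.67% of the 18787 genes measured in both pairs, and 34 were so with dim values at their bounds, against 4.96% of those genes. Within 2-fold in both genotypes were 14, namely Cfap20, Cfap36, Cfap97, Cfap298, Cfap300, Cfap410, Dnaaf2, Dnaaf4, Dnaaf5, Dnal1, Dnal4, Rsph3a, Rsph9 and Rfx2. Among the 24 of the lower block that were above background on all 4 arrays, the log2 differences ran from -3.26 to -1.10 in the Nrf2-/- pair, with a median of -2.45, and from -2.44 to -1.12 in the Nrf2+/+ pair, with a median of -2.10. Among the 14 of the even block they ran from -0.85 to 0.35 in the Nrf2-/- pair and from -0.87 to 0.75 in the Nrf2+/+ pair, with medians of -0.17 and -0.09. The lowest value in each pair was that of Rfx2. Outside both blocks were Cfap20dc, Rfx3 and Rsph6a, which are described with their groups. Over the 39 members above background on all 4 arrays, the Nrf2-/- and Nrf2+/+ tumor differences had a Pearson r of 0.94 and a Spearman rho of 0.91 across genes; the pairs share no array, but the points share the scaling of each array, and genes are not independent replicates. Within the 24 of these that were lower in both, r was 0.77.

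**Figure D2:**
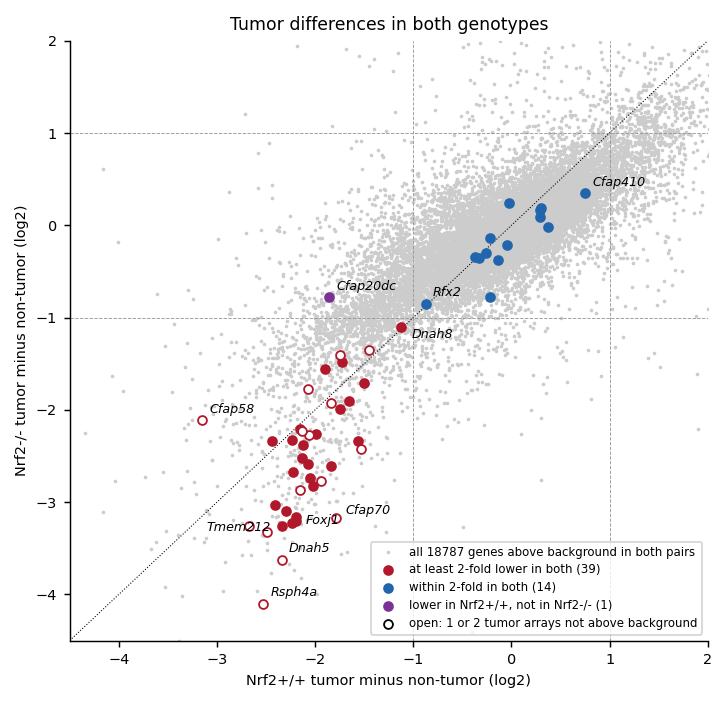
Log2 tumor minus non-tumor difference in the Nrf2-/- pair (vertical axis) against that in the Nrf2+/+ pair (horizontal axis) for the 54 cilia genes measured in both and, in grey, all 18787 such genes that lie within the plotted range; dashed lines mark 2-fold and the dotted line marks equal differences. The 39 red genes lie beyond 2-fold in both pairs and most of them lie below the dotted line, and the 14 blue genes lie inside the 2-fold lines.

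The 4 arrays allow 1 test, an additive fit of tissue and genotype across all genes with limma, which treats the genotypes as the repeat of the tissue difference and leaves 1 residual degree of freedom. At an adjusted p under 0.05 it called 0 of the 56 members lower in tumors and 0 higher, and 0.0% of all 20571 genes either way. The lowest adjusted p of a member was 0.0715, which was also the lowest of any gene, and the median over members was 0.0720. At an unadjusted p under 0.05 stood 41 of the 56 members, all of them lower in tumors, against 29.6% of all genes. When the limma prior was allowed to follow the mean level (a mean-variance trend), 41 of the 56 members were called lower, against 12.1% of all genes, with a lowest adjusted p of 0.00128 among members. In all, 5 of 10 alternative settings called between 26 and 41 members lower and the other 5 called none. The tissue call of the members therefore depends on the setting. For genotype the fit called 0 members and 0.0% of all genes; 9 members, 8 of them lower in Nrf2-/-, had an unadjusted p under 0.05, against 9.22% of all genes, and the fit with the trend called 0 members, against 1.2% of all genes, with 20 members, 19 of them lower in Nrf2-/-, at an unadjusted p under 0.05, against 12.2% of all genes.

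Promoters are shown because the Rfx factors are known to act on ciliary genes through the X-box, a pair of facing half-sites. RefSeq (GRCm38.p6) gave a promoter of 300 bases, 250 before and 50 after the gene's start, for 45 of the 56 members. An X-box-like pair was searched as GTNNCC, then 1 to 3 bases, then GGNNAC; single half-sites as GTTGCC; and a forkhead motif, the kind Foxj1 binds, as GTAAACA, all on both strands, where a half-site can lie inside a pair. The pair was found in 10 of the 45 members (22.2%), against 4.00% of all 27025 genes with a promoter. Among the 11380 genes with a promoter that were above background on at least 1 array, as the members were, the share was 5.01%. It was present in 5 of the 29 members of the lower block with a promoter (17.2%) and in 4 of the 13 of the even block (30.8%). Only pairs with exactly these letters were counted. Looser pairs, such as gttgctatggtaac before Cfap45 of the lower block, were not counted in any set, so these shares do not rank the blocks by X-box content. The single half-site was found in 19 members (42.2%), against 14.1% of all genes and 14.9% of those above background. It was present in 10 of the 29 lower members (34.5%) and 7 of the 13 even ones (53.8%). The forkhead motif was found in 1 member (2.22%), Cfap20, against 4.05% of all genes and 3.2% of those above background. The 100 bases before the start are given for 4 members of the lower block and, last, 2 of the even block, with capitals on the pair or half-site. Of the lower members with a pair, Cfap58 and Dnaaf6b were below background in both tumors. Their bounds were under 2-fold in the Nrf2+/+ pair, and the Nrf2-/- pair gave none. A match is a description of letters and not a shown binding site.
Cfap126 (chr1:171122945-171123044, plus strand): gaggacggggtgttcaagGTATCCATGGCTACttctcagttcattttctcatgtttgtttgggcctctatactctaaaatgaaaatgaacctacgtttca
Cfap206 (chr4:34730207-34730306, minus strand): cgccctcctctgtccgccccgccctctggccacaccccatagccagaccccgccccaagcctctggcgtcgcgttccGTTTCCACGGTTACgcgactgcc
Cfap58 (chr19:47937612-47937711, plus strand): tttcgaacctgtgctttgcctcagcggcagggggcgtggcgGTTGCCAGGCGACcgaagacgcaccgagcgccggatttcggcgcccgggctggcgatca
Cfap161 (chr7:83794840-83794939, minus strand): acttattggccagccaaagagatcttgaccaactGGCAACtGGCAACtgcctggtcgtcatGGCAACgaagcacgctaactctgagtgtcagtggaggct
Cfap298 (chr16:90934850-90934949, minus strand): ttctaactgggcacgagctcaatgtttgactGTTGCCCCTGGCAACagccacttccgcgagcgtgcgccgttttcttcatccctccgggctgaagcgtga
Cfap20 (chr8:95434870-95434969, minus strand): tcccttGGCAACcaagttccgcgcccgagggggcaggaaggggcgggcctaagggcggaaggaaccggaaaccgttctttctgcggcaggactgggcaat
Cfap126, Cfap206 and Cfap58 carry a pair that starts 82, 23 and 59 bases before the start, for Cfap126 at 1 of its 3 listed starts. Cfap161 carries 3 single half-sites and no pair. Cfap298, whose level was close on all 4 arrays, carries a pair 69 bases before the start and another 188 bases before it, outside the stretch shown. The pair and the half-site were thus present in both blocks of genes, and the forkhead motif in 0 of the 29 lower members and 1 of the 13 even ones. Of the genes that mark ciliated cells, the 300-base promoters of Dnah5 and Tmem212 held none of the 3 motifs.

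The transcription factors did not share a single pattern. Foxj1 was lower in tumors, as given above. Rfx2, which acts with Foxj1 on ciliary promoters, had 104 in Nrf2-/- tumors against 188 in Nrf2-/- non-tumor lung, with 118 in Nrf2+/+ tumors against 216 in Nrf2+/+ non-tumor lung, above background throughout. These are 1.80-fold and 1.83-fold lower levels in the Nrf2-/- and Nrf2+/+ tumors, under the 2-fold mark. Rfx3, a close relative, was barely detected, with 19.7 in Nrf2-/- tumors against 26.9 in Nrf2-/- non-tumor lung, with 22.9 in Nrf2+/+ tumors against 31.3 in Nrf2+/+ non-tumor lung. Only the Nrf2+/+ non-tumor value was above background, so no tumor difference can be read for Rfx3 in the Nrf2-/- pair. The Nrf2+/+ pair gives no bound either, because 31.3 lay under the detection level of 41.6 on the Nrf2+/+ tumor array. It was the member with the lowest peak signal among those included, and the brightest gene left out, Cfap221, peaked at 31.5 without passing the software's flag. The others left out were Cfap57, Cfap61, Cfap97d1 and Dnaaf6, which peaked between 10.5 and 15.4.

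All 4 outer arm heavy chains, the motors that power the beat, were at least 2-fold lower in tumors of both genotypes. Beside Dnah5, Dnah9, the heavy chain of the distal part of airway cilia, had 103 in Nrf2-/- tumors against 477 in Nrf2-/- non-tumor lung, with 107 in Nrf2+/+ tumors against 477 in Nrf2+/+ non-tumor lung. Dnah11, its partner in the proximal part, had 149 in Nrf2-/- tumors against 747 in Nrf2-/- non-tumor lung, with 133 in Nrf2+/+ tumors against 625 in Nrf2+/+ non-tumor lung. Both were 4.45-fold to 5.01-fold lower in tumors, with nearly the same value in the tumors of either genotype. Dnah8, known mainly from sperm flagella, had 363 in Nrf2-/- tumors against 779.8 in Nrf2-/- non-tumor lung, with 229.6 in Nrf2+/+ tumors against 499.9 in Nrf2+/+ non-tumor lung. It was 2.15-fold and 2.18-fold lower, the weakest of the group and just past the mark, and was higher in Nrf2-/- than in Nrf2+/+ tissue of either kind.

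Of the 4 inner arm heavy chains, which shape the bend, 2 were at least 2-fold lower in both genotypes without resting on a bound, and the other two were dim. Dnah6 had 167 in Nrf2-/- tumors against 1362 in Nrf2-/- non-tumor lung, with 317 in Nrf2+/+ tumors against 1682 in Nrf2+/+ non-tumor lung, a level 8.16-fold and 5.30-fold lower. Dnah2 had 276 in Nrf2-/- tumors against 1585 in Nrf2-/- non-tumor lung, with 395 in Nrf2+/+ tumors against 1736 in Nrf2+/+ non-tumor lung, 5.75-fold and 4.39-fold lower. Both were above background on all 4 arrays, and a dimmer Dnah2 probe, below background in Nrf2-/- tumors, gave log2 differences of -0.54 in the Nrf2-/- pair and -1.44 in the Nrf2+/+ pair. Dnah10 had 20.6 in Nrf2-/- tumors against 99.6 in Nrf2-/- non-tumor lung, with 34.5 in Nrf2+/+ tumors against 144 in Nrf2+/+ non-tumor lung, and Dnah1 had 37.8 in Nrf2-/- tumors against 96.8 in Nrf2-/- non-tumor lung, with 40.4 in Nrf2+/+ tumors against 110.4 in Nrf2+/+ non-tumor lung. Their tumor values were all below background, so Dnah10 was at least 1.98-fold and at least 3.47-fold lower and Dnah1 at least 1.92-fold and at least 2.65-fold lower, in the Nrf2-/- and Nrf2+/+ pairs. With these bounds both passed 2-fold in the Nrf2+/+ pair and neither did in the Nrf2-/- pair, and a dim second Dnah1 probe, above background on the Nrf2+/+ non-tumor array alone, was 0.11 higher in that pair on the log2 scale.

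Smaller dynein chains divided by gene. Dnali1, an inner arm light intermediate chain, had 244 in Nrf2-/- tumors against 1637 in Nrf2-/- non-tumor lung, with 517 in Nrf2+/+ tumors against 2144 in Nrf2+/+ non-tumor lung. Dnaic1, an intermediate chain of the outer arm, had 286 in Nrf2-/- tumors against 839 in Nrf2-/- non-tumor lung, with 285 in Nrf2+/+ tumors against 1064 in Nrf2+/+ non-tumor lung. Dnali1 was 6.70-fold and 4.15-fold lower and Dnaic1 2.94-fold and 3.73-fold lower, and for both genes the tumor arrays lay below the non-tumor arrays. The outer arm light chain genes did not follow. Dnal1 had 80.6 in Nrf2-/- tumors against 105 in Nrf2-/- non-tumor lung, with 105 in Nrf2+/+ tumors against 115 in Nrf2+/+ non-tumor lung, and Dnal4 had 4676 in Nrf2-/- tumors against 4732 in Nrf2-/- non-tumor lung, with 4937 in Nrf2+/+ tumors against 3810.2 in Nrf2+/+ non-tumor lung, all above background and within 2-fold. Every log2 tumor difference of these 2 genes was between -0.38 and 0.37.

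Assembly factors, which work in the cytoplasm before the arms reach the axoneme, mostly stayed within 2-fold. Dnaaf5 had 5104 in Nrf2-/- tumors against 4483 in Nrf2-/- non-tumor lung, with 5759.8 in Nrf2+/+ tumors against 4685 in Nrf2+/+ non-tumor lung, slightly higher in tumors of both genotypes by 0.19 and 0.30 on the log2 scale. Dnaaf2 had 166 in Nrf2-/- tumors against 210.3 in Nrf2-/- non-tumor lung, with 195 in Nrf2+/+ tumors against 253 in Nrf2+/+ non-tumor lung. Dnaaf4 had 298 in Nrf2-/- tumors against 509.6 in Nrf2-/- non-tumor lung, with 471 in Nrf2+/+ tumors against 547 in Nrf2+/+ non-tumor lung, 1.71-fold and 1.16-fold lower. None of these 3 reached 2-fold. Dnaaf1, a leucine-rich repeat protein needed for both arm types, did differ, with 55.1 in Nrf2-/- tumors against 401 in Nrf2-/- non-tumor lung, with 104 in Nrf2+/+ tumors against 462 in Nrf2+/+ non-tumor lung. It was at least 7.29-fold lower in Nrf2-/- tumors and 4.46-fold lower in Nrf2+/+ tumors, and a second, dimmer probe, below background in both tumors, gave log2 differences of -0.90 in the Nrf2-/- pair and -1.10 in the Nrf2+/+ pair. Dnaaf6b had a low signal of 12.5 in Nrf2-/- tumors against 47.6 in Nrf2-/- non-tumor lung, with 20.2 in Nrf2+/+ tumors against 71.9 in Nrf2+/+ non-tumor lung, below background in both tumors, and its bound was at least 1.73-fold in the Nrf2+/+ pair. The Nrf2-/- pair gives no bound for Dnaaf6b, because 47.6 lay under the detection level of 50.3 on the Nrf2-/- tumor array.

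Radial spoke genes split by protein. Rsph4a, part of the spoke head, had 14.4 in Nrf2-/- tumors against 246 in Nrf2-/- non-tumor lung, with 49.5 in Nrf2+/+ tumors against 285 in Nrf2+/+ non-tumor lung. It was at least 4.90-fold lower in Nrf2-/- tumors, where it was below background, and 5.77-fold lower in Nrf2+/+ tumors. Rsph1, also of the spoke head, had 55.1 in Nrf2-/- tumors against 295 in Nrf2-/- non-tumor lung, with 157 in Nrf2+/+ tumors against 452 in Nrf2+/+ non-tumor lung, at least 5.35-fold and 2.89-fold lower. Rsph14 had 47.1 in Nrf2-/- tumors against 221 in Nrf2-/- non-tumor lung, with 72.1 in Nrf2+/+ tumors against 316 in Nrf2+/+ non-tumor lung, at least 4.40-fold and 4.38-fold lower. Rsph9, which also sits in the spoke head, stayed within 2-fold with 3153 in Nrf2-/- tumors against 3896 in Nrf2-/- non-tumor lung, with 2644 in Nrf2+/+ tumors against 3155 in Nrf2+/+ non-tumor lung. Rsph3a, a spoke stalk gene, had 44940.3 in Nrf2-/- tumors against 38068 in Nrf2-/- non-tumor lung, with 38868 in Nrf2+/+ tumors against 39455 in Nrf2+/+ non-tumor lung. In each pair the log2 tumor differences of its 3 probes lay within 0.30 of each other. The other Rsph3a probes were dimmer, at 5245 and 1358 on the Nrf2+/+ non-tumor array. Rsph6a, a relative of Rsph4a known from sperm, was above background on the Nrf2+/+ non-tumor array only, at 59.9, against 7.49 to 12.3 on the other 3 arrays.

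The dynein regulatory complex, or nexin link, was lower as a group of 3. Drc1, at its base, was bright on every array, with 1055 in Nrf2-/- tumors against 6417 in Nrf2-/- non-tumor lung, with 1873 in Nrf2+/+ tumors against 6713 in Nrf2+/+ non-tumor lung, 6.08-fold and 3.58-fold lower. Drc3 had 20.6 in Nrf2-/- tumors against 140.2 in Nrf2-/- non-tumor lung, with 46.8 in Nrf2+/+ tumors against 180.0 in Nrf2+/+ non-tumor lung, and Drc7 had 26.8 in Nrf2-/- tumors against 70.9 in Nrf2-/- non-tumor lung, with 27.5 in Nrf2+/+ tumors against 92.0 in Nrf2+/+ non-tumor lung. Both were below background in both tumors, and their bounds were at least 2.79-fold and at least 1.41-fold in the Nrf2-/- pair and at least 3.85-fold and at least 2.21-fold in the Nrf2+/+ pair. Drc7 was the member of the 3 whose bound did not reach 2-fold in the Nrf2-/- pair.

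Tektins, filament proteins inside the doublet microtubules, were bright and lower in tumors without exception among the 3 measured. Tekt1 had 742 in Nrf2-/- tumors against 5248 in Nrf2-/- non-tumor lung, with 1572 in Nrf2+/+ tumors against 6405 in Nrf2+/+ non-tumor lung, 7.08-fold and 4.07-fold lower. Tekt2 had 1227 in Nrf2-/- tumors against 4016 in Nrf2-/- non-tumor lung, with 1578 in Nrf2+/+ tumors against 4482 in Nrf2+/+ non-tumor lung, 3.27-fold and 2.84-fold lower. Tekt4 had 576 in Nrf2-/- tumors against 2764 in Nrf2-/- non-tumor lung, with 856 in Nrf2+/+ tumors against 3405 in Nrf2+/+ non-tumor lung, 4.80-fold and 3.98-fold lower. All their values lay well above background, so these differences do not rest on bounds. A second Tekt1 probe gave log2 differences of -3.06 in the Nrf2-/- pair and -2.35 in the Nrf2+/+ pair.

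The Cfap genes, a naming family of cilia and flagella associated proteins rather than 1 complex, gave the largest group, with 21 members. In the Nrf2-/- pair 14 of 21 were at least 2-fold lower, against 9.13% of all genes, and in the Nrf2+/+ pair 15 of 21 were, against 15.4%. Cfap126, known as Flattop and needed for basal body placement, had 2239 in Nrf2-/- tumors against 8879.7 in Nrf2-/- non-tumor lung, with 3168 in Nrf2+/+ tumors against 10625 in Nrf2+/+ non-tumor lung, 3.97-fold and 3.35-fold lower. Cfap45, a protein inside the doublets, had 978 in Nrf2-/- tumors against 3671 in Nrf2-/- non-tumor lung, with 1125 in Nrf2+/+ tumors against 3534 in Nrf2+/+ non-tumor lung, 3.75-fold and 3.14-fold lower. Cfap52, another inner doublet protein, had 329 in Nrf2-/- tumors against 1665 in Nrf2-/- non-tumor lung, with 876 in Nrf2+/+ tumors against 2582 in Nrf2+/+ non-tumor lung, 5.06-fold and 2.95-fold lower. In these 3 bright genes the tumor arrays lay well below the non-tumor arrays in both genotypes. Cfap161 had 91.7 in Nrf2-/- tumors against 846 in Nrf2-/- non-tumor lung, with 228 in Nrf2+/+ tumors against 1049 in Nrf2+/+ non-tumor lung, Cfap65 had 156 in Nrf2-/- tumors against 1399 in Nrf2-/- non-tumor lung, with 373 in Nrf2+/+ tumors against 1708 in Nrf2+/+ non-tumor lung, and Cfap44 had 87.7 in Nrf2-/- tumors against 753 in Nrf2-/- non-tumor lung, with 174 in Nrf2+/+ tumors against 853 in Nrf2+/+ non-tumor lung. These 3 were, with Tmem212 and Foxj1, the most strongly lowered members of the Nrf2-/- pair among those above background on both arrays, at 9.23-fold, 8.95-fold and 8.58-fold lower. Cfap53, whose loss disturbs left-right placement of organs, had 139.7 in Nrf2-/- tumors against 704 in Nrf2-/- non-tumor lung, with 190.4 in Nrf2+/+ tumors against 1030.2 in Nrf2+/+ non-tumor lung, 5.04-fold and 5.41-fold lower. Cfap70 had 39.9 in Nrf2-/- tumors against 359.7 in Nrf2-/- non-tumor lung, with 151 in Nrf2+/+ tumors against 519 in Nrf2+/+ non-tumor lung, at least 7.15-fold and 3.44-fold lower. Cfap58 and Cfap206 were below background in both tumors, and Cfap58 had a bound of at least 1.90-fold in the Nrf2+/+ pair. The Nrf2-/- pair gives no bound for Cfap58, because its non-tumor value of 43.7 lay under the detection level of 50.3 on the Nrf2-/- tumor array. The remaining lower members, Cfap69, Cfap100, Cfap157 and Cfap299, were between 2.78-fold and 6.37-fold lower in the Nrf2-/- pair and between 3.30-fold and 4.67-fold lower in the Nrf2+/+ pair.

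Of the Cfap genes, 6 stayed within 2-fold in both genotypes. Cfap20 had 4699 in Nrf2-/- tumors against 4179 in Nrf2-/- non-tumor lung, with 5118 in Nrf2+/+ tumors against 4190.0 in Nrf2+/+ non-tumor lung. Cfap298 had 14582 in Nrf2-/- tumors against 16869 in Nrf2-/- non-tumor lung, with 17034 in Nrf2+/+ tumors against 17536 in Nrf2+/+ non-tumor lung, and Cfap36 had 2374 in Nrf2-/- tumors against 2613 in Nrf2-/- non-tumor lung, with 2769 in Nrf2+/+ tumors against 3230.4 in Nrf2+/+ non-tumor lung. None of these moved by more than 1.22-fold. Cfap97 had 2112 in Nrf2-/- tumors against 1980.5 in Nrf2-/- non-tumor lung, with 2364 in Nrf2+/+ tumors against 1936 in Nrf2+/+ non-tumor lung, and Cfap300 had 80.2 in Nrf2-/- tumors against 102 in Nrf2-/- non-tumor lung, with 98.6 in Nrf2+/+ tumors against 124 in Nrf2+/+ non-tumor lung. Cfap410, also known from photoreceptor disease, had the highest difference of any member, with 1905 in Nrf2-/- tumors against 1498 in Nrf2-/- non-tumor lung, with 2008 in Nrf2+/+ tumors against 1194 in Nrf2+/+ non-tumor lung. It was 1.27-fold and 1.68-fold higher in tumors, and it passed 2-fold in the Nrf2+/+ pair only when arrays were scaled to their medians. Cfap20dc passed 2-fold in the Nrf2+/+ pair and not in the Nrf2-/- pair, with 102 in Nrf2-/- tumors against 174 in Nrf2-/- non-tumor lung, with 55.2 in Nrf2+/+ tumors against 200.4 in Nrf2+/+ non-tumor lung. Its 2 probes gave log2 differences of -0.78 and -0.48 in the Nrf2-/- pair and of -1.86 and -1.50 in the Nrf2+/+ pair, the dimmer of them below background in both tumors.

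The kinase and coiled-coil genes added to the set by name went with the lower block. Stk33, a serine/threonine kinase, had 58.5 in Nrf2-/- tumors against 585 in Nrf2-/- non-tumor lung, with 165 in Nrf2+/+ tumors against 930.3 in Nrf2+/+ non-tumor lung, at least 10.0-fold lower in Nrf2-/- tumors and 5.63-fold lower in Nrf2+/+ tumors. Ccdc81 had 48.9 in Nrf2-/- tumors against 467 in Nrf2-/- non-tumor lung, with 86.7 in Nrf2+/+ tumors against 553 in Nrf2+/+ non-tumor lung, at least 9.29-fold and 6.38-fold lower. Both Nrf2-/- tumor values were below background, both Nrf2+/+ tumor values were above it, and the tumor arrays did not overlap the non-tumor arrays. Ccdc81, Rsph4a, Stk33, Cfap53 and Dnah6 had the 5 lowest Nrf2+/+ differences among members above background on both arrays.

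Between genotypes, more members passed the 2-fold mark in tumors than in non-tumor lung. In tumors 12 of the 47 members measured were at least 2-fold lower in Nrf2-/- than in Nrf2+/+, against 3.69% of all genes, and 0 were at least 2-fold higher, against 4.3%. The median member difference was -0.52, where the median of all genes was -0.03, and 40 of the 47 were below 0. All 47 were above background in Nrf2+/+ tumors but only 39 in Nrf2-/- tumors, so some were measured through the Nrf2+/+ array alone. Over members above background on all 4 arrays the median was -0.36, where that of all such genes was -0.02. The 12 were Cfap161, Cfap52, Cfap65, Cfap70, Dnah5, Dnali1, Foxj1, Rsph1, Rsph4a, Stk33, Tekt1 and Tmem212. Foxj1 had 60.0 in Nrf2-/- tumors against 143 in Nrf2+/+ tumors, 2.38-fold lower, and Cfap52 had 329 in Nrf2-/- tumors against 876 in Nrf2+/+ tumors, 2.66-fold lower. Cfap161 was 2.49-fold lower, Tmem212 2.39-fold, Cfap65 2.38-fold, and Dnali1 and Tekt1 2.12-fold each. These 7 were above background in both tumors. For the other 5 the Nrf2-/- tumor was below background: Cfap70 was at least 3.00-fold lower, Rsph1 at least 2.84-fold, Stk33 at least 2.82-fold and Dnah5 at least 2.32-fold, while Rsph4a had no bound because its Nrf2+/+ tumor value of 49.5 lay under the detection level of the other array. With dim values at their bounds 11 members were at least 2-fold lower, against 2.58% of all genes, and with normexp background correction 2 were, against 1.35%, with a median of -0.30. In the second Dnah5 probe, below background in both tumors, the Nrf2-/- value was the higher, by 0.30 on the log2 scale.

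Other members had nearly equal levels in tumors of both genotypes. Dnaic1 had 286 in Nrf2-/- tumors and 285 in Nrf2+/+ tumors, and Dnah9 had 103 in Nrf2-/- tumors and 107 in Nrf2+/+ tumors. The outer arm heavy chains Dnah8 and Dnah11, Cfap69, Cfap20dc, Rsph9 and Rsph3a were higher in Nrf2-/- tumors, by 0.17 to 0.88 on the log2 scale, all under 2-fold. In non-tumor lung 1 of 56 members was at least 2-fold lower in Nrf2-/- mice, against 4.65% of all genes, and 0 were higher, against 3.04%. That member was Rsph6a, at least 2.16-fold lower and below background in Nrf2-/- lung, and at these bounds the share of all genes was 3.48%. The median member difference in non-tumor lung was -0.26, where the median of all genes was 0.02, and 48 of the 56 were below 0. These 2 arrays lay on different slides.

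**Figure D3:**
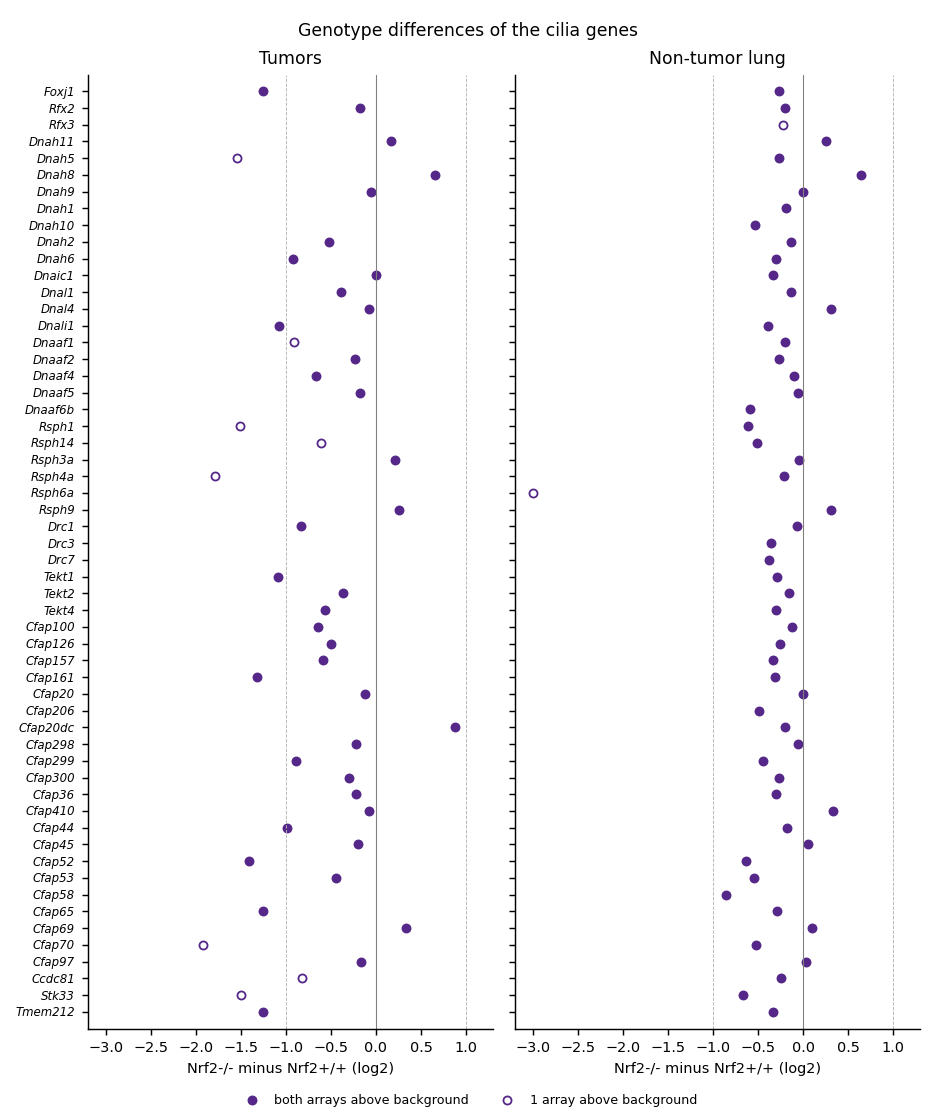
Log2 difference Nrf2-/- minus Nrf2+/+ of each cilia gene in tumors (left) and in non-tumor lung (right), from 1 array per group; filled points are above background on both arrays, open points on 1 of them, and genes below background on both are not drawn. In tumors 12 points lie at or beyond the 2-fold line on the left, and in non-tumor lung 1 does.

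The tumor difference itself was set side by side between genotypes for the 39 members above background on all 4 arrays. The Nrf2-/- difference minus the Nrf2+/+ difference had a median of -0.25 and was below 0 in 30 of the 39, where the median over all 16287 such genes was -0.05. Of the 39 members, 12 had a value of -0.5 or lower, against 9.77% of those genes. Among the 24 that were at least 2-fold lower in both, the median was -0.42 and 20 were below 0, and the values ran from -1.01 to 0.34. With 1 array per group this difference of differences has no test.

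Motile cilium genes that the naming rule misses, listed with earlier results of these data known, went the same way. Of 69 such genes listed, 50 were above background on at least 1 array, among them Hydin of the central pair and Ccdc39 of the axonemal ruler. In the Nrf2-/- pair 37 of the 47 measured were at least 2-fold lower, against 9.13% of all genes, and in the Nrf2+/+ pair 39 of 50 were, against 15.4%. The medians were -2.06 and -1.86, with 0 at least 2-fold higher in either. Of the 50, 29 were above background in Nrf2-/- tumors and 47 in Nrf2-/- non-tumor lung. In Nrf2+/+ mice these counts were 38 and 50, so some genes were measured through a non-tumor array alone. With dim values at their bounds 29 were at least 2-fold lower in the Nrf2-/- pair, against 5.82% of all genes, with a median of -1.21. In the Nrf2+/+ pair 32 were, against 11.2%, with a median of -1.58. In tumors 8 of 38 were at least 2-fold lower in Nrf2-/- than in Nrf2+/+ mice, against 3.69% of all genes, with a median of -0.72; at their bounds 3 were, against 2.58%, with a median of -0.54, and 29 were above background in both tumors. Genes for intraflagellar transport and the BBSome, which serve immotile primary cilia as well, showed no such difference. In the Nrf2-/- pair 2 of 36 were at least 2-fold lower, against 9.13% of all genes, with a median of -0.25. In the Nrf2+/+ pair 3 of 38 were, against 15.4%, with a median of 0.04. Between genotypes in tumors, 32 of 35 of these transport genes were below 0 in Nrf2-/-, with a median of -0.31. Of them 0 were at least 2-fold lower, against 3.69% of all genes. Another list held regulators of multiciliation together with Rfx1 and other Rfx family genes, so its medians are not those of multiciliation regulators alone. On it, 2 of 9 measured genes were at least 2-fold lower in the Nrf2-/- pair, against 9.13% of all genes. In the Nrf2+/+ pair 3 of 9 were, against 15.4%. In the same order the medians were -0.20 and -0.02, and 1 of 9 and 4 of 9 were above 0. Myb had 44.2 in Nrf2-/- tumors, below background, against 354 in Nrf2-/- non-tumor lung, with 94.7 in Nrf2+/+ tumors against 343 in Nrf2+/+ non-tumor lung. The other in the Nrf2-/- pair was Deup1, above background on the Nrf2-/- non-tumor array alone. Trp73, a p53 relative needed to make multiciliated cells, had log2 differences of -0.83 in the Nrf2-/- pair and -1.47 in the Nrf2+/+ pair, and Ccno, which acts in centriole amplification, -0.99 and -1.01. Rfx1 was the highest on the list in both pairs, with 0.20 and 0.41.

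Markers of other lung cells also differed between tumor and non-tumor lung. The summed scaled signal of 10 alveolar type 2 markers, all above background on every array, was 1309413 in Nrf2-/- tumors against 804210.1 in Nrf2-/- non-tumor lung, with 1238777 in Nrf2+/+ tumors against 682562 in Nrf2+/+ non-tumor lung. That of 10 club cell markers, the secretory neighbours of ciliated cells in the airway, was 374671 in Nrf2-/- tumors against 709187 in Nrf2-/- non-tumor lung. It was 655165 in Nrf2+/+ tumors against 819580.3 in Nrf2+/+ non-tumor lung. In the Nrf2-/- pair 5 of 10 were at least 2-fold lower, against 9.13% of all genes, and 3 higher, against 5.44%. In the Nrf2+/+ pair 3 were lower, against 15.4%, and 1 higher, against 8.08%. Of these markers 9 or 10 were above background on each array. Endothelial markers were lower in tumors, by medians of -1.03 in the Nrf2-/- pair and -1.41 in the Nrf2+/+ pair over 9 genes, alveolar type 1 markers by -0.67 and -1.21 over 9, smooth muscle markers by -1.44 and -1.08 over 6, cardiac muscle markers by -2.41 and -2.61 over 8 and leukocyte markers by -0.23 and -0.82 over 7. Medians of 4 basal cell markers were -0.58 and -0.15, and of 9 reference genes 0.30 and 0.17. Between genotypes in tumors, smooth muscle markers had a median of -0.66, with 5 of 6 below 0. Club cell markers had a median of -0.54, or -0.42 with dim values at their bounds, and were split, with 6 below 0 and 4 above. The medians of the other lists were 0.17 for endothelial, 0.38 for leukocyte, 0.27 for alveolar type 1, 0.07 for alveolar type 2, 0.11 for basal and 0.08 for cardiac muscle markers, and -0.08 for reference genes. The medians of the cilia, club and smooth muscle lists were thus all lower in Nrf2-/- than in Nrf2+/+ tumors. So were those of the intraflagellar transport list, at -0.31, the multiciliation list, at -0.17, and the reference genes. The part of tissue makeup in the cilia gene differences was not tested.

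**Figure D4:**
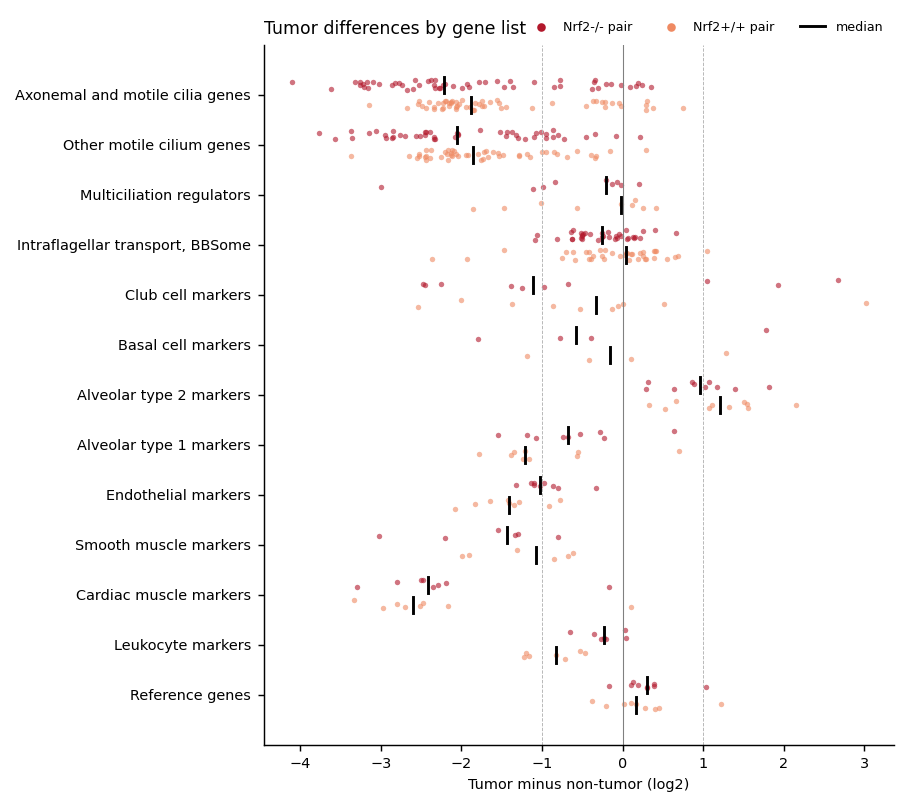
Log2 tumor minus non-tumor difference of each gene measured in a pair, by gene list, with the Nrf2-/- pair above the Nrf2+/+ pair and a bar at the median; dashed lines mark 2-fold. The cilia genes and the other motile cilium genes reach furthest to the left with the cardiac muscle markers, intraflagellar transport genes centre near 0, and alveolar type 2 markers lie to the right of 0.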

How the data were processed

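The deposited files give the intensity of each spot without log transformation, read with Agilent Feature Extraction 10.7.3.1 from the 014868 array design, which was annotated on mouse build mm9, per the file headers. The processed signal used here is brightness after background subtraction, per the file headers. The submitters' value table equalled the processed signal within rounding, with medians of 50.1, 47.2, 70.0 and 79.2 for Nrf2-/- tumor, Nrf2+/+ tumor, Nrf2-/- non-tumor and Nrf2+/+ non-tumor. Each array was Cy3-labelled from 500 ng of pooled RNA, per the labels. From these files log2 of the processed signal minus each array's 75th percentile (584, 555, 742 and 760 in the same order) was computed; 245 probes had 10 spots each, which were averaged (median SD 0.07 to 0.09 on the log2 scale). Of 41174 probes, 4 were left out whole because of a spot flagged as non-uniform. Symbols came from RefSeq (GRCm38.p6) by accession, for 26686 probes, with none for 14484. A gene was represented by its brightest probe among those above background on at least 1 array, a condition added after Rsph6a's brightest probe proved never to be above background.

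A difference counted from 2-fold upward, among genes above background on 1 of the 2 arrays. The additive fit used limma 3.58.1 in R 4.3.3 with eBayes (prior degrees of freedom 2.17) and Benjamini-Hochberg adjustment over 20571 genes, and was tested on simulated data. With slide as a block no residual degree of freedom is left, so that fit was not run. Replicate sampling noise cannot be assessed with 1 array per group, and that number limits the precision. The genes named followed a rule by role, level and size of difference. Members and lists (motile cilium, multiciliation, intraflagellar transport, club, basal, type 2, type 1, endothelial, cardiac, smooth muscle, leukocyte and reference genes) were chosen with earlier results of these data known. The alternatives were other scaling, background correction, filters, probe rules, the value table and a mean-variance trend, and, added after seeing the data, dim values at their bound. The files hold no mean signal, so normexp (offset 50) used the median signal and its local background. Python 3.11.15, numpy 2.4.6, pandas 2.3.3 and matplotlib 3.10.9 served the rest.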

Additional observations from a re-analysis of the deposited data

How the results depend on the processing

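Of 160 values of the counts, medians and fit calls under alternative settings, 136 stayed close to the values above, 24 moved and 0 reversed direction. The median in the Nrf2-/- pair was -2.49 with spike-in scaling, -1.30 with normexp, -2.00 with the mean of all probes, -1.91 with each probe on its own and -1.91 with genes above background on all 4 arrays, -1.93 without a filter and -1.95 with dim values at their bound. The median in the Nrf2+/+ pair was -1.59 with median scaling, -2.12 with spike-in scaling and -1.15 with normexp, and that of the tumor genotype difference was -0.30 with normexp. Median scaling put the median of all genes at 0.10 in the Nrf2-/- pair and 0.26 in the Nrf2+/+ pair, and spike-in scaling put them at -0.30 and -0.27, so the member medians moved with all genes; median scaling also put 1 member, Cfap410, past 2-fold higher in the Nrf2+/+ pair. Among the 39 members above background on all 4 arrays, 24 were lower in the Nrf2-/- pair (5.16% of 16287 genes) and 25 in the Nrf2+/+ pair (10.1%). Of these 39, 7 were lower in Nrf2-/- than in Nrf2+/+ tumors (1.81%). This filter takes out members below background in tumors, so both the number of members and the kind of member differ from the main setting. With normexp 2 members were lower in Nrf2-/- than in Nrf2+/+ tumors (1.35%); the cause was not tested. In non-tumor lung the count lower in Nrf2-/- was 0 with normexp (1.25% of all genes), 0 on all 4 arrays (1.73%) and 3 of 71 single probes (4.41% of all probes). The additive fit called 38 members lower with median scaling (5.08% of all genes), 34 with normexp (8.00%), 26 of 39 on all 4 arrays (12.8%), 33 of 61 without a filter (1.37%) and 41 with the mean-variance trend; the cause was not tested. Of 1860 values of single members under these settings, 329 moved and 0 reversed. No replicate could be left out, and a fit with the replicate number as a block was not possible because each group had 1 array; the additive fit pairs tumor and non-tumor lung by genotype. Signals near background limit the tumor values, where 17 members in Nrf2-/- and 9 in Nrf2+/+ were not well above it.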
